A study of Mus musculus with 39 samples.

Results

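The 6 genes examined here, T, Mixl1, Gsc, Mesp1, Tbx6 and Evx1, encode transcription factors that are switched on when the epiblast forms the primitive streak and gives rise to mesoderm and definitive endoderm. They were followed through the histone marks of nEnd, naive extra-embryonic endoderm, a culture of endoderm of the blastocyst stage derived from mouse embryonic stem cells. All peaks of the 36 deposited peak lists that touched a gene body or the 20 kb on either side of it were taken (GRCm38), which gave 130 of 432096 peaks, and the 6 windows were read against those of all 21938 protein-coding genes. The 130 peaks were 64 of H3K27me3, 33 of H3K27ac, 26 of H3K4me1 and 7 of H3K9me3.

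Peaks came from CUT&Tag, in which an antibody tethers a transposase that cuts and tags the DNA around a histone mark. Untreated nEnd cultures of the OCT4-mCherry reporter line, kept in RPMI with Activin A, the GSK3 inhibitor CHIR99021 and LIF, were sorted by FACS on OCT4-mCherry and PDGFRA into Oct4+ (OCT4 only), DP (both markers) and Pdgfra+ (PDGFRA only) cells. Each of the 4 marks was profiled in 3 replicates of each population, so that 9 libraries per mark were compared. All groups share the medium, the reporter allele and a single line, and the labels do not say whether replicates were separate cultures, so p-values measure only the spread between these samples. The labels hold a single IgG control for each population, so the lists of a population may share a control, and they do not say which list used which. These 3 IgG samples were not analysed here.

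T (Brachyury) is a T-box factor of the primitive streak and notochord and a target of Wnt signalling. Mixl1 is a paired-type homeobox factor of the streak and Gsc a homeobox factor of the anterior streak and organiser, both induced by Nodal and Activin. Mesp1 is a basic helix-loop-helix factor of nascent and cardiac mesoderm, Tbx6 a T-box factor of presomitic mesoderm, and Evx1 a homeobox factor of the posterior streak. In cells that do not use such developmental genes, Polycomb repressive complex 2 typically deposits H3K27me3 over their starts. H3K27ac marks active promoters and enhancers, H3K4me1 marks enhancers whether active or primed, and H3K9me3 marks heterochromatin, often over repeats.

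The lists differed widely in length, and this bears on every comparison below. They held 1074 to 16057 peaks for H3K4me1, 3079 to 65131 for H3K27ac, 1143 to 8672 for H3K27me3 and 5322 to 29970 for H3K9me3. Sequencing depth is unknown from these files, so the lack of a peak says only that the signal was not listed, not that the mark was absent. Identity was checked by H3K27ac peaks found in at least 2 of 3 libraries at marker genes. Pluripotency markers had them at all 6 windows in Oct4+ cells, at 1 in DP cells (Tfcp2l1) and at 0 in Pdgfra+ cells. Extra-embryonic endoderm markers had them at 5, 6 and 6 of 6 genes, and trophectoderm markers at 4, 3 and 3 of 6. The same was true of 69.0% of all gene windows in Oct4+, 49.1% in DP and 34.0% in Pdgfra+ cells, and the 5 and 4 of 6 in Oct4+ cells are within 1 gene of that share.

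H3K27me3 was the mark shared by these genes. T, Mixl1, Gsc, Mesp1 and Evx1, 5 of the 6, carried a peak in at least 2 of 3 libraries in each of the 3 populations, whereas Tbx6 had no H3K27me3 peak in any of the 9 libraries. Of all gene windows, 17.7% met this in Oct4+, 30.9% in DP and 15.4% in Pdgfra+ cells. Per library, 4.67 ± 0.577 of the 6 windows held a peak in Oct4+, 5.0 ± 0 in DP and 4.33 ± 1.15 in Pdgfra+ cells (mean ± SD, n = 3 each), beside 19.0 ± 9.85%, 31.1 ± 6.97% and 17.2 ± 11.6% of all windows. The 5 genes also had the mark within 1 kb of the gene start in at least 2 of 3 libraries of every population, which held for 9.41% of all genes in Oct4+, 14.9% in DP and 5.98% in Pdgfra+ cells.

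**Figure D1:**
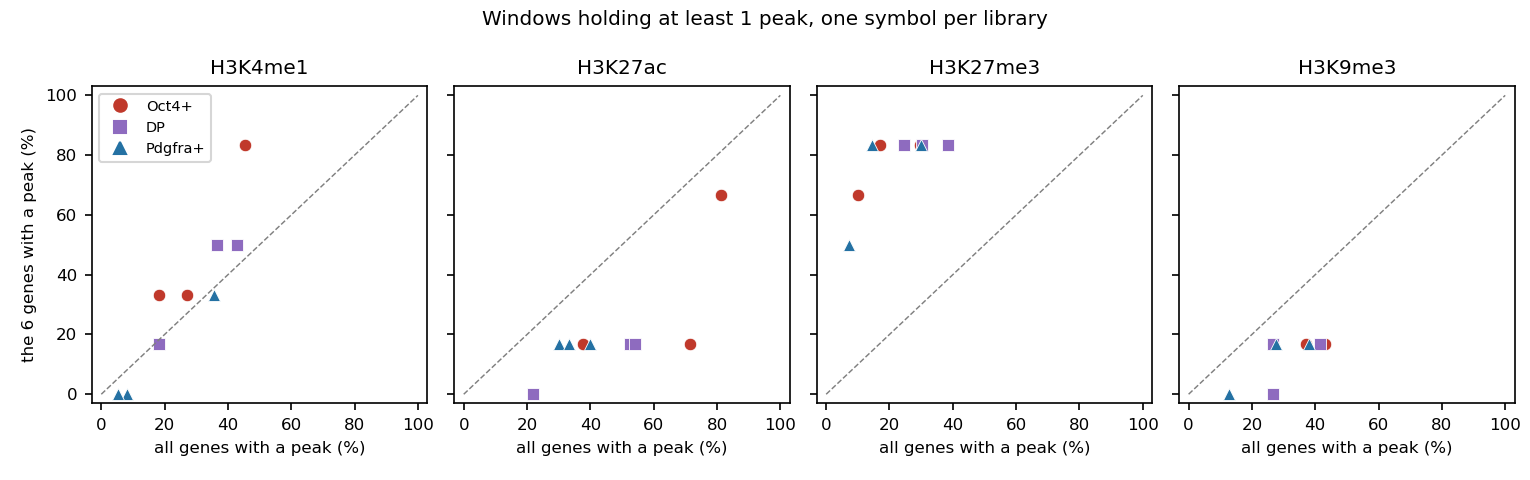
Share of the 6 gene windows with at least 1 peak (vertical axis, %) against the share of all protein-coding gene windows with a peak in the same library (horizontal axis, %), 1 symbol per library and 1 panel per mark, with the dashed line marking equal shares. All 9 H3K27me3 libraries lie above the line, while the 9 H3K27ac and 9 H3K9me3 libraries lie below it.

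Evx1 and Mesp1 were the members with an H3K27me3 peak in all 9 libraries. Peaks covered 20.2, 46.9 and 65.5% of the Evx1 window (chr6:52293498-52338378; gene at chr6:52313498-52318378, plus strand) in Oct4+ replicates 1 to 3. In DP cells the values were 75.0, 62.9 and 49.8%, and in Pdgfra+ cells 12.3, 13.2 and 54.6%. The 3 populations overlapped, although Oct4+ exceeded Pdgfra+ cells at each replicate number, and the lowest value was that of Pdgfra+ replicate 1, which also had the shortest H3K27me3 list of the 9. In 8 of the 9 libraries an Evx1 peak lay within 1 kb of the start, with a median width of 22.5 kb (3.96 to 37.1 kb) and a total signal above a median of 98.9% of its own list. A separate block lay 15.5 to 23.6 kb upstream in Oct4+ replicates 2 and 3, DP replicates 2 and 3 and Pdgfra+ replicate 3, and in DP replicate 1 the peak was continuous from 23.4 kb upstream to 13.7 kb downstream.

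For Mesp1 (chr7:79792241-79793788, minus strand) 14.0, 15.2 and 61.9% of the window was covered in Oct4+ cells. DP cells had 59.1, 62.7 and 34.0%, and Pdgfra+ cells 11.8, 19.6 and 82.9%, so that these populations overlapped too. The Mesp1 start lay inside a peak in 9 of 9 libraries, with a median width of 9.79 kb (4.52 to 19.3 kb). In all 3 DP libraries, Oct4+ replicate 3 and Pdgfra+ replicate 3 a further peak reached the start of the neighbouring gene Mesp2, a related factor of somite segmentation whose start lies 16.9 kb upstream of that of Mesp1. The windows of Mesp1 and Mesp2 therefore share peaks and are not independent.

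Gsc (chr12:104471209-104473330, minus strand) ranged most widely. None of its window was covered in Oct4+ replicate 1, against 11.1 and 47.5% in replicates 2 and 3. In DP cells 83.6, 91.7 and 42.7% was covered, and in Pdgfra+ cells 5.58, 5.56 and 57.2%. In DP replicate 1 a peak of 47.0 kb ran from 31.8 kb upstream to 15.2 kb downstream of the start, and in Pdgfra+ replicate 3 a peak of 35.6 kb began 31.5 kb upstream, whereas in Pdgfra+ replicates 1 and 2 the peaks were 2.35 and 2.34 kb wide. The DP values overlapped those of the other populations only through replicate 3.

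T (chr17:8434423-8442496, plus strand) was covered over 4.78, 16.8 and 27.2% of its window in Oct4+, 28.2, 34.5 and 20.8% in DP and 0, 7.12 and 36.4% in Pdgfra+ cells. In each of the 8 libraries with a peak it spanned the start, with a median width of 11.6 kb (2.3 to 17.5 kb). Mixl1 (chr1:180693043-180697034, minus strand) had the lowest median peak width of the 5 genes, 2.59 kb (2.16 to 5.17 kb) in the 7 libraries where the start was spanned. Its coverage was 4.9, 5.89 and 6.36% in Oct4+, 14.2, 14.3 and 5.0% in DP and 0, 4.91 and 11.7% in Pdgfra+ cells. In DP replicate 1 the only Mixl1 peak lay 13.8 to 23.7 kb upstream, and DP replicate 2 had both an upstream peak (18.7 to 23.8 kb) and one over the start. The total signal of the start peaks of Mixl1 exceeded a median of 34.9% of the peaks of the same list, against 89.4% for T, 89.8% for Gsc, 88.7% for Mesp1 and 98.9% for Evx1.

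**Figure D2:**
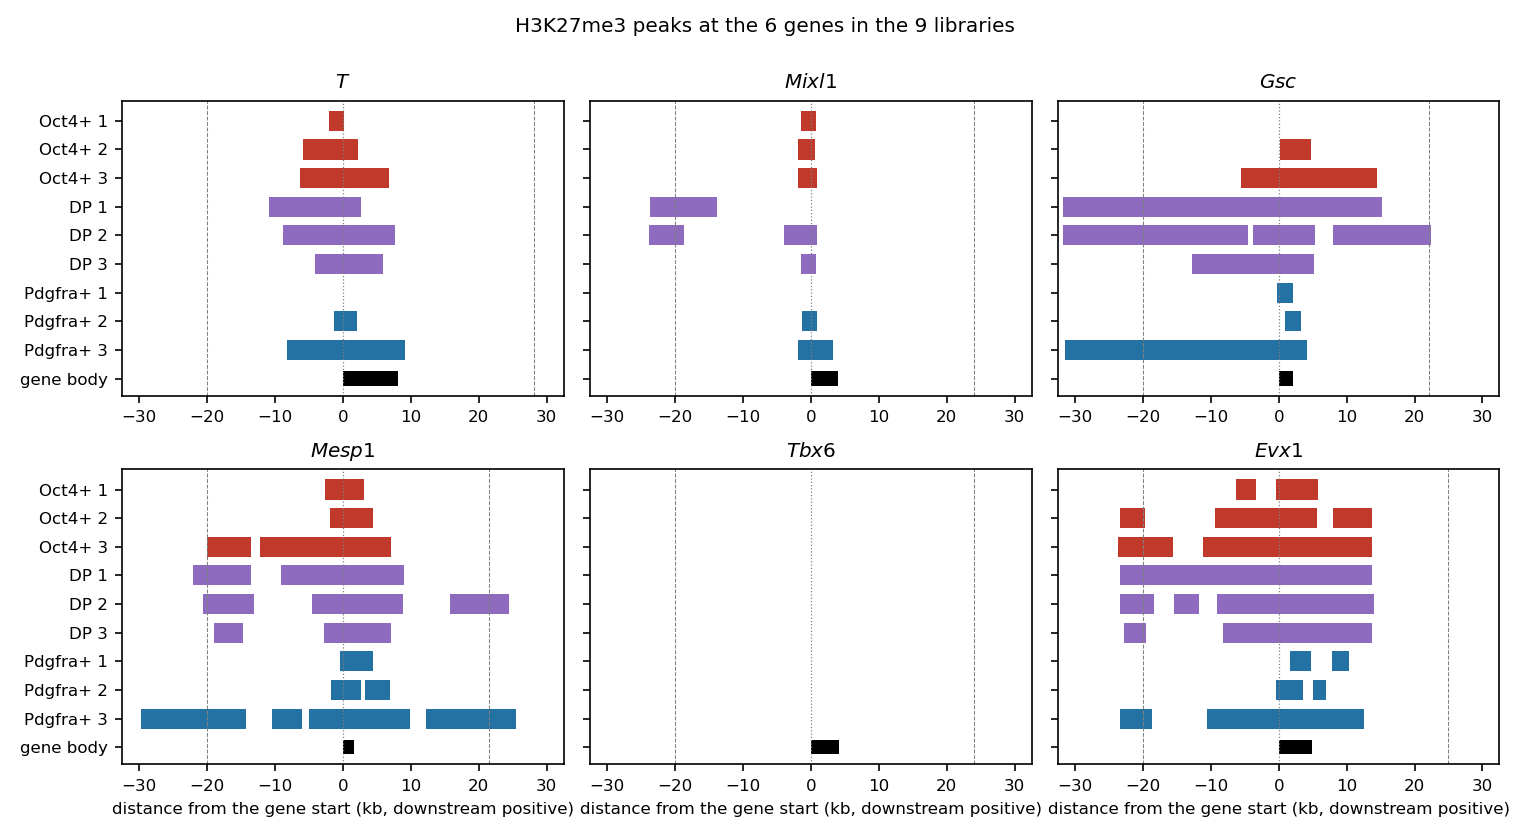
H3K27me3 peaks (coloured bars; Oct4+ red, DP purple, Pdgfra+ blue) by distance from each gene's start in kb, downstream positive, 1 row per library. Black bars are gene bodies and dashed lines the window edges; peaks sat over the starts of T, Mixl1, Gsc, Mesp1 and Evx1 in libraries of all 3 populations, and the Tbx6 panel holds none.

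Mean H3K27me3 coverage was highest in DP cells for all 5 genes, but no difference passed the test. The share of all genes with their highest mean in DP cells was not computed. At T, Gsc and Evx1 the DP mean stayed highest when windows, lists or replicates were varied. For Evx1 this was barely so without replicate 1 (56.4% against 56.2% in Oct4+ cells). The order was not stable for Mixl1 and Mesp1. For Mixl1 Oct4+ cells had the highest mean with 5 kb flanks (18.0% against 17.0% in DP and 17.5% in Pdgfra+ cells) and when a peak was counted by its maximum (5.71, 5.4 and 5.55%). For Mesp1 Pdgfra+ cells had it without replicate 1 (51.2% against 48.3% in DP cells) or replicate 2 (47.4 against 46.5%). For T the means were 16.3 ± 11.2% in Oct4+, 27.8 ± 6.85% in DP and 14.5 ± 19.3% in Pdgfra+ cells (SD, n = 3; exact permutation p = 0.457). For Gsc they were 19.5 ± 24.9, 72.7 ± 26.3 and 22.8 ± 29.8% (exact permutation p = 0.136). The exact p-values of Evx1, Mixl1 and Mesp1 were 0.164, 0.379 and 0.654. Mean coverage over all genes moved with these values. It was 4.44 to 7.43% in DP libraries against 0.571 to 5.16% in Oct4+ and 0.326 to 6.62% in Pdgfra+ libraries, and its part in the difference was not tested.

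The test asked, for every gene, whether the percentage of its window under peaks differed between the 3 populations in any direction. It was an exact permutation of the between-group sum of squares over all assignments of the 9 libraries. Benjamini-Hochberg adjustment was made over all genes with a peak. The smallest p the test allows is 0.00357, and no gene passed an adjusted p of 0.05 for any mark. Called genes were 0.0% of 13301 tested for H3K4me1, 0.0% of 18706 for H3K27ac, 0.0% of 9829 for H3K27me3 and 0.0% of 13215 for H3K9me3, and so 0 of the 6, 4, 5 and 2 members tested. An unadjusted p below 0.05 was reached by 833, 1624, 714 and 1654 genes, and by 1, 0, 0 and 1 members. These members, Gsc for H3K4me1 and T for H3K9me3, had peaks in the 3 Oct4+ libraries alone. That pattern fixes the exact permutation p at 0.0357 whatever the coverage. Since no gene passed the adjusted threshold, all members were compared between populations by their values. A difference that misses this threshold does not show that populations are alike.

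The starts of T, Gsc and Evx1, which carried H3K27me3, are shown with that of Tbx6, which did not. The start of Mesp1, under H3K27me3 in all 9 libraries, is not shown, and its CG count, lower than that of Tbx6, is given below. RefSeq promoter sequence (GRCm38) was found for 5 of the 6 members, all except Mixl1. The bases shown run 5′ to 3′ on the gene's strand up to the base before the start, with CG dinucleotides in capitals, since CG-rich starts are the usual ground of Polycomb. The gene start is that of GENCODE, which equals the RefSeq start for T, Evx1 and Tbx6 but lies 94 bases before it for Gsc and 198 for Mesp1, so that 156 bases are shown for Gsc. The stretches are chr17:8434173-8434422 for T (plus strand), chr12:104473331-104473486 for Gsc (minus strand), chr6:52313248-52313497 for Evx1 (plus strand) and chr7:126781233-126781482 for Tbx6 (plus strand).
T promoter: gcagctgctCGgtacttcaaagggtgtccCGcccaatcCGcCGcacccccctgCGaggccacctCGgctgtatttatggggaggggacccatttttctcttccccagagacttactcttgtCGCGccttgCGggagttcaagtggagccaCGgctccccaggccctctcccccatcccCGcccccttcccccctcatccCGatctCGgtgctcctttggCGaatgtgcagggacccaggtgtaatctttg
Gsc promoter: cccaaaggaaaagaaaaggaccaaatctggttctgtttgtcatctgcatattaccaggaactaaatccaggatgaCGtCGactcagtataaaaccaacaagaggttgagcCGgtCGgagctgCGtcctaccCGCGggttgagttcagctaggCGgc
Evx1 promoter: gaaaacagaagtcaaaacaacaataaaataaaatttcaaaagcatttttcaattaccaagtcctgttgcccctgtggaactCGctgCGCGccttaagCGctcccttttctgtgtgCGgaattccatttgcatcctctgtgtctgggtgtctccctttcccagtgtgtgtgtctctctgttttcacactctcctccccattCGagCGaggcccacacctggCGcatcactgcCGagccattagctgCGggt
Tbx6 promoter: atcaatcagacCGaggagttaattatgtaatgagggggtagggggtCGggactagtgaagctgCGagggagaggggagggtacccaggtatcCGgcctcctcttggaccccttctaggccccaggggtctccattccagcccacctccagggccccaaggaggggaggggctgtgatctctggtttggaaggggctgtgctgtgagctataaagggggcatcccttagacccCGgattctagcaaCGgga

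In the 250 bases before the RefSeq start, CG dinucleotides numbered 22 for Gsc, 14 for T, 10 for Evx1, 6 for Tbx6 and 2 for Mesp1, with a median of 6 over 27025 promoters. Of the 22 at Gsc, 8 are in the bases shown, and the rest span the GENCODE start or lie between it and the RefSeq start. Gsc, T and Evx1 were thus above the median and Tbx6 at it. Mesp1, whose start was under H3K27me3 in all 9 libraries, was below the median, and only 19.4% of promoters held fewer. That count covers these 250 bases alone. The H3K27me3 peaks at Mesp1, pooled over the 9 libraries, had 18.4 CG per kb, against 15.6 in the Mesp1 window. The Oct4+ replicate 2 H3K4me1 peak over the Mesp1 start (2.47 kb) had 47.0 CG per kb. That peak is of another mark, from a single library, and far shorter than the window. Whether CG content bears on H3K27me3 at Mesp1 was not tested. Binding motifs were searched on both strands in the same 250 bases. The TCF/LEF motif CTTTGNT, the letters read by the Wnt pathway's factors, was found in Mesp1 alone of the 5 (31 bases before the RefSeq start) and in 16.1% of all promoters. FOXH1 letters AATNCACA, which serve Nodal and Activin signalling, and T-box letters AGGTGTGA were found in none of the 5, and in 3.24 and 1.14% of all promoters.

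H3K27ac was listed at few members. Their windows, of 41.5 to 48.1 kb, are shorter than the median of 57.4 kb over all genes, which bears on every share of windows given here. In the window, a peak in at least 2 of 3 libraries was found at 1 of 6 members, Tbx6, in each population, against 69.0, 49.1 and 34.0% of all windows in Oct4+, DP and Pdgfra+ cells. Within 1 kb of the start no member met this in any population, against 33.0, 30.8 and 18.7% of all genes. Gsc and Evx1 had no H3K27ac peak in any library. T, Mixl1 and Mesp1 had them in Oct4+ replicate 2 only, the library with the longest list of the series (65131 peaks). The mean number of members with a peak was 2.0 ± 1.73 in Oct4+, 0.667 ± 0.577 in DP and 1.0 ± 0 in Pdgfra+ cells (n = 3), and the Oct4+ mean was 1.0 without replicate 2.

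The peaks of Oct4+ replicate 2 at these genes had a total signal above 9.7 to 60.8% of the list. At T a peak of 2.4 kb lay inside the gene body, 2.64 to 5.04 kb downstream of the start, mostly intronic (239 bp of exon). Mixl1 had peaks 8.76 to 10.5 kb upstream and 13.1 to 15.7 kb downstream of its start, the latter in the body of the neighbouring gene Lin9. Mesp1 had 4, of which the peak 16.2 to 18.6 kb upstream reached the start of Mesp2.

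Tbx6 (chr7:126781483-126785560, plus strand) lies in a gene-dense region, and most H3K27ac peaks of its window lay at the starts of its neighbours. Peaks covered 36.2, 58.0 and 6.2% of its window in Oct4+, 38.1, 0 and 33.5% in DP and 17.7, 17.8 and 18.9% in Pdgfra+ cells, with overlapping populations (exact permutation p = 0.6). The starts of Ppp4c, a protein phosphatase subunit 11.0 kb downstream, Aldoa, the glycolytic aldolase 19.3 kb downstream, Ypel3 4.53 kb upstream and Mapk3, the kinase ERK1, 21.9 kb upstream, were within 1 kb of peaks in libraries of every population. The start of Tbx6 itself was reached in Oct4+ replicate 2 alone, by a peak from 2.32 kb upstream to 0.428 kb downstream whose total signal exceeded only 11.8% of the list. Oct4+ replicates 1 and 2 also had peaks 5.17 to 8.38 and 5.33 to 7.64 kb downstream of the Tbx6 start. These lay inside the body of Ppp4c, with no protein-coding start within 1 kb.

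**Figure D3:**
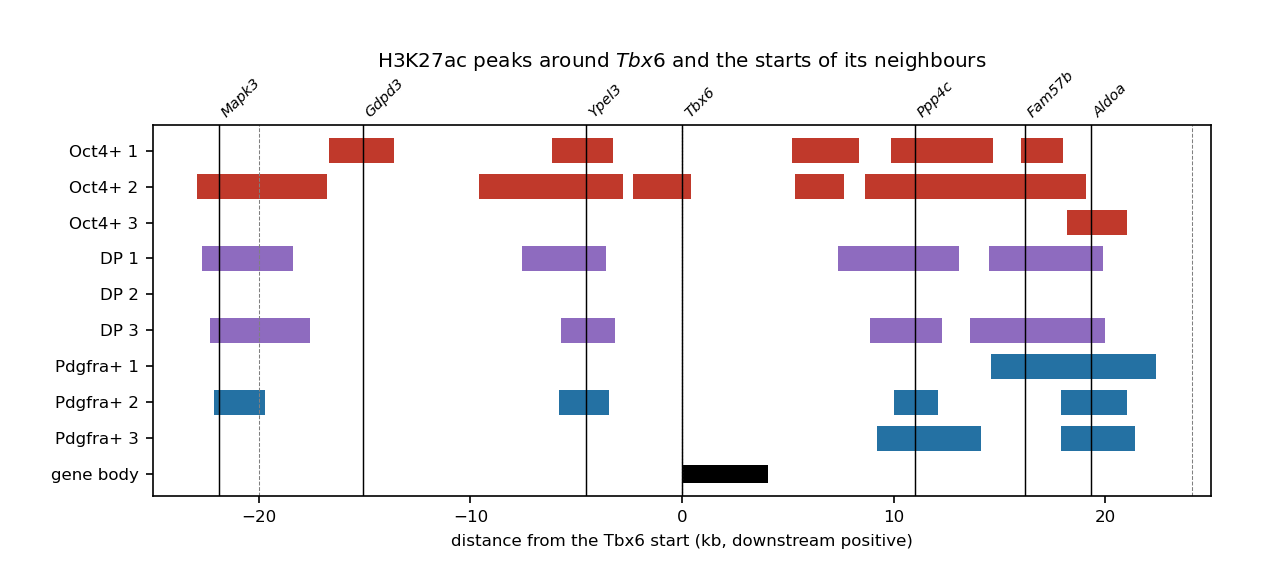
H3K27ac peaks around Tbx6 by distance from its start in kb, 1 row per library (Oct4+ red, DP purple, Pdgfra+ blue), with vertical lines at the starts of protein-coding genes, the black bar for the Tbx6 body and dashed lines for the window edges. Peaks fall over the starts of Mapk3, Ypel3, Ppp4c, Fam57b and Aldoa, and 1 peak, in Oct4+ replicate 2, reaches the Tbx6 start. In Oct4+ replicates 1 and 2 a further peak lies between the starts of Tbx6 and Ppp4c, at neither.

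H3K4me1 was found at different members in different populations. In at least 2 of 3 libraries it lay in the windows of Gsc and Evx1 in Oct4+ cells (2 of 6, against 29.0% of all windows), of Mixl1, Tbx6 and Evx1 in DP cells (3 of 6, against 33.9%) and of none in Pdgfra+ cells (0 of 6, against 10.1%). Each count is within 1 gene of what these shares give for 6 windows. Members with a peak numbered 3.0 ± 1.73 per library in Oct4+, 2.33 ± 1.15 in DP and 0.667 ± 1.15 in Pdgfra+ cells (n = 3). The Pdgfra+ peaks all came from replicate 3, without which the mean was 0, and the lists of Pdgfra+ replicates 1 and 2 were the 2 shortest for this mark (1723 and 1074 peaks).

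At Mixl1 H3K4me1 lay upstream of the gene. Peaks of 2.64, 3.9 and 2.63 kb covered 6.0, 8.87 and 5.99% of the window in the 3 DP libraries, and 9.67% was covered in Pdgfra+ replicate 3, by a peak at the same place and another 16.8 to 18.5 kb upstream. No Oct4+ library and neither of the other Pdgfra+ libraries had one. The 3 DP peaks shared chr1:180707943-180710283, an intergenic stretch of 2341 bp. It begins 10.9 kb upstream of the Mixl1 start and lies 15.8 kb from Acbd3 and 17.2 kb from Lin9. The stretch was overlapped by no H3K27ac, H3K27me3 or H3K9me3 peak in any library. Beyond it, the DP replicate 2 H3K4me1 peak reached 14.3 kb upstream and overlapped a DP replicate 1 H3K27me3 peak (13.8 to 23.7 kb upstream). H3K4me1 coverage of the window gave an exact permutation p of 0.143 and an adjusted p of 0.747. A window with a peak in 3 of 3 DP and 0 of 3 Oct4+ libraries, a pattern chosen after its values were seen, was found for 2.16% of all genes.

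The 300 bases at the middle of the shared stretch, chr1:180708964-180709263 on the minus strand as for Mixl1, are given because they lay under H3K4me1 in all DP libraries, again with CG in capitals.
Mixl1 distal region: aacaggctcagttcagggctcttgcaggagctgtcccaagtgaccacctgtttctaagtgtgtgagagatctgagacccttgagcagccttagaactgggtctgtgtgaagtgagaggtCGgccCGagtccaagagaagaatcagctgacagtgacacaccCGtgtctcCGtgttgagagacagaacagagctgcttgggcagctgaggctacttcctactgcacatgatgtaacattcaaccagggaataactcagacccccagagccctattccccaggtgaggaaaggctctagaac

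These 300 bases held 4 CG dinucleotides. The whole stretch had 10.3 CG per kb, against 11.7 in the Mixl1 window, and held the TCF/LEF letters at 1 place and those of FOXH1 and the T-box at 0. Lower-case bases, which mark repeats in the RefSeq genome, made up 19.8% of the stretch and 35.1% of the window.

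Gsc had H3K4me1 in Oct4+ cells alone, over 6.32, 22.9 and 5.4% of the window (exact permutation p = 0.0357, adjusted p = 0.639). The peaks did not lie at the same place. Replicate 1 had a peak 10.9 to 13.6 kb upstream, and replicate 3 one from 0.852 to 3.12 kb upstream. Replicate 2 had a peak overlapping each of these and another 18.1 kb downstream. Its peak nearest the gene ran from 3.15 kb upstream over the start to 2.44 kb downstream. The 6 DP and Pdgfra+ libraries had none. A peak in 3 of 3 Oct4+ and 0 of 6 other libraries, likewise a pattern chosen after its values were seen, was found in 1.53% of all windows. Such a pattern fixes the exact permutation p at 0.0357 whatever the coverage.

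Evx1 had H3K4me1 at its start. Peaks covered 4.81, 13.1 and 5.03% of the window in Oct4+, 0, 15.6 and 12.1% in DP and none in Pdgfra+ cells (exact permutation p = 0.171), so that Oct4+ and DP overlapped and Pdgfra+ lay at the level of DP replicate 1. Bases under H3K4me1 in at least 2 of 3 libraries came to 3300 in Oct4+ and 5423 in DP cells, and all of them were also under H3K27me3 in at least 2 of 3 libraries of the same population. At no other member did bases supported in this way for both marks coincide. The share of all gene windows with such bases was not computed. Peaks were called per mark on bulk cells, so both marks on the same molecule cannot be told apart from a mixture of cells.

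T and Mesp1 had an H3K4me1 peak in Oct4+ replicate 2 only, at T 3.42 to 5.51 kb upstream and at Mesp1 over the start. At Tbx6 peaks covered 3.49% of the window in Oct4+ replicate 2, 24.0 and 12.1% in DP replicates 2 and 3 and 0.245% in Pdgfra+ replicate 3 (exact permutation p = 0.25). Its DP mean of 12.0 ± 12.0% (n = 3) was the highest population mean of any member for this mark, but no peak lay within 1 kb of its own start. The peaks were instead within 1 kb of the starts of Mapk3, Ypel3, Fam57b or Aldoa, except 1 in DP replicate 3, 17.5 to 20.4 kb upstream.

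**Figure D4:**
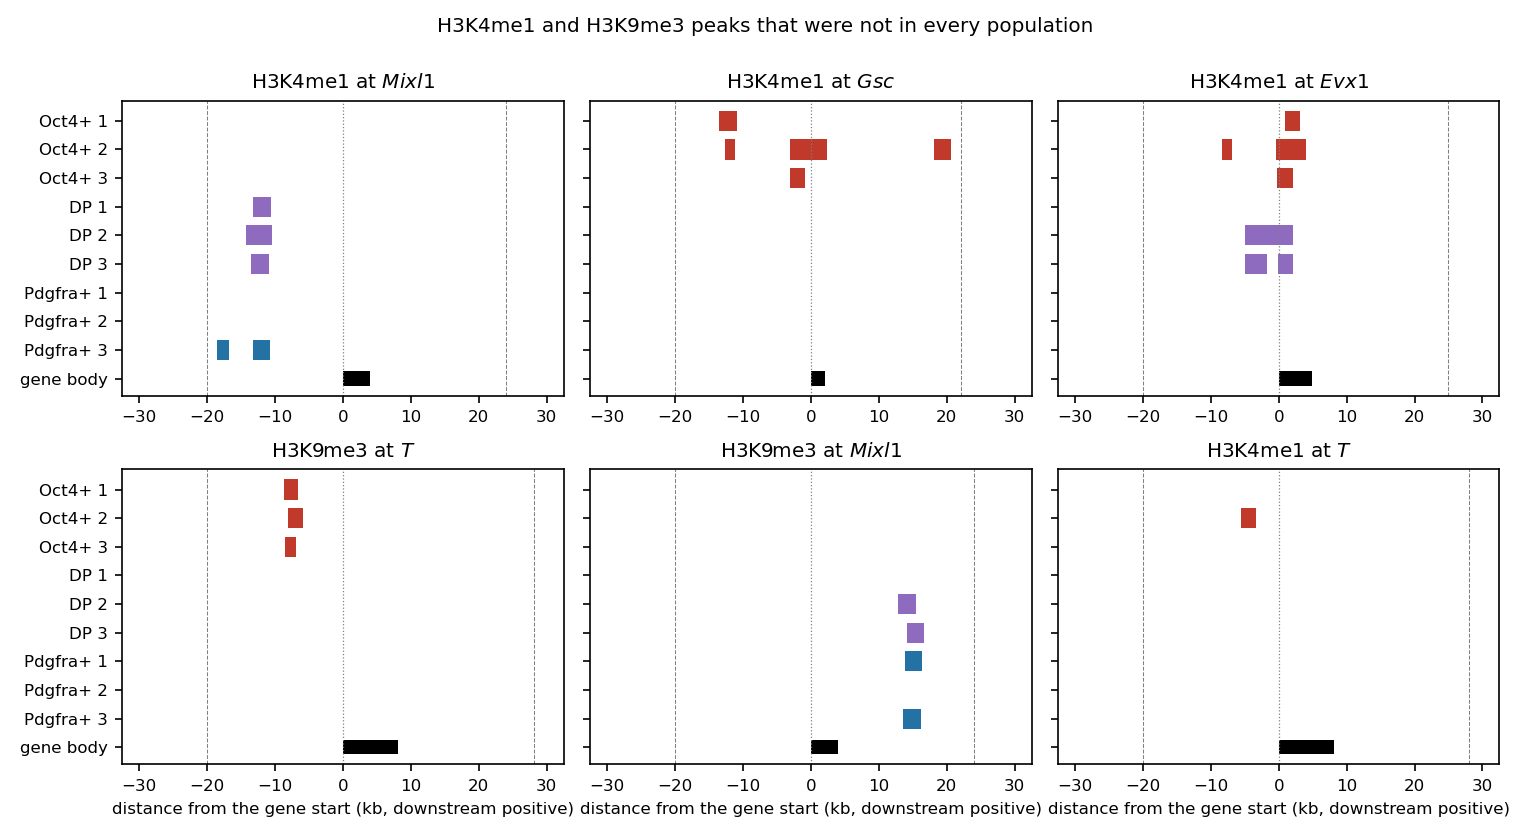
H3K4me1 peaks at Mixl1, Gsc, Evx1 and T and H3K9me3 peaks at T and Mixl1 by distance from the gene start in kb, downstream positive, 1 row per library (Oct4+ red, DP purple, Pdgfra+ blue), with black bars for gene bodies and dashed lines for window edges. Peaks upstream of Mixl1 appear in 3 DP rows and in Pdgfra+ replicate 3, and H3K9me3 upstream of T appears in the 3 Oct4+ rows.

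H3K9me3 was found at T and Mixl1 and at no other member. In at least 2 of 3 libraries it lay in the window of T in Oct4+ cells and of Mixl1 in DP and in Pdgfra+ cells, 1 of 6 members each time, against 35.4, 30.1 and 25.7% of all windows. At T the 3 Oct4+ libraries had peaks of 2.01, 2.18 and 1.68 kb that covered 4.18, 4.54 and 3.49% of the window, and the 6 DP and Pdgfra+ libraries had none (exact permutation p = 0.0357, adjusted p = 0.313). This pattern, too, was chosen after its values were seen, and 2.26% of all windows had it. It fixes the exact permutation p at 0.0357 whatever the coverage. The total signal of the 3 peaks exceeded 59.5, 32.6 and 35.8% of the peaks of their lists.

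The 3 peaks shared chr17:8426287-8427555, 1269 bp between T2, 2.77 kb away, and T, whose start lies 6.87 kb downstream. H3K27me3 peaks overlapped this stretch in 0 of 3 Oct4+, 2 of 3 DP and 1 of 3 Pdgfra+ libraries. Lower-case repeat bases made up 66.2% of it, against 27% of the T window. Its middle 300 bases, chr17:8426772-8427071 on the plus strand, are given as sequence under H3K9me3 in all Oct4+ libraries, with CG in capitals (2 in these bases).
T upstream region: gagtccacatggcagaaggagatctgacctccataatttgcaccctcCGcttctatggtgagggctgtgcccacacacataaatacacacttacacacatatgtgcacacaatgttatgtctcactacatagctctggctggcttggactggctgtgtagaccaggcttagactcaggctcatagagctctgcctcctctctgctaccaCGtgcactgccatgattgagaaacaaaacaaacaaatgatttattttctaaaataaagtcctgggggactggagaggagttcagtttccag

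At Mixl1 H3K9me3 peaks covered 5.9 and 5.68% of the window in DP replicates 2 and 3 and 5.72 and 5.96% in Pdgfra+ replicates 1 and 3, with none in Oct4+ cells, DP replicate 1 or Pdgfra+ replicate 2 (exact permutation p = 0.286). They lay 12.9 to 16.6 kb downstream of the Mixl1 start, inside the body of Lin9, and between 75 and 1217 bp of each was exonic. The H3K27ac peak of Oct4+ replicate 2 named above lay at the same place. Pdgfra+ replicate 2 had the shortest H3K9me3 list (5322 peaks).

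**Figure D5:**
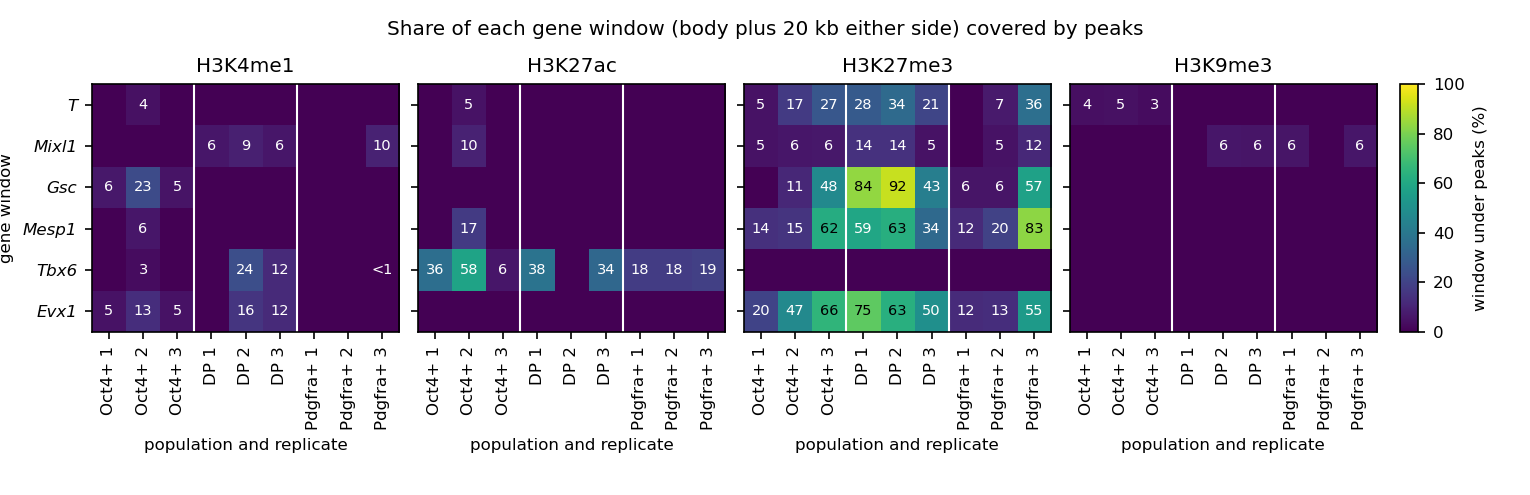
Percentage of each gene window (rows) under peaks in each library (columns, by population and replicate), 1 panel per mark, with the same colour scale from 0 to 100% and values printed where above 0. H3K27me3 values stand in 8 or 9 libraries of each gene but Tbx6, H3K27ac values in 8 libraries of Tbx6, and H3K9me3 values in the 3 Oct4+ libraries of T and in 4 DP and Pdgfra+ libraries of Mixl1.

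Other genes of gastrulation were taken as a list of 24 transcription factors and signalling genes. H3K27me3 was present in at least 2 of 3 libraries at 13 of them in Oct4+, 15 in DP and 9 in Pdgfra+ cells, beside 17.7, 30.9 and 15.4% of all windows. H3K27ac was present at 13, 7 and 3 (69.0, 49.1 and 34.0% of all windows) and H3K4me1 at 14, 13 and 0 (29.0, 33.9 and 10.1%). H3K9me3 was present at 4, 3 and 1 (35.4, 30.1 and 25.7%). None of the 20, 23, 21 and 10 genes tested for these marks passed the adjusted threshold, and 1, 7, 3 and 1 had an unadjusted p below 0.05 in the exact permutation test. In Oct4+ cells H3K27ac was thus at 13 of the 24 list genes and at 1 of the 6 members, beside 69.0% of all windows, and this difference was not tested.

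The genes most like each member over all 36 coverage values were named by the mean absolute difference, in percentage points of the window. For T they were Slpi, Rims4 and Eid2b (1.4, 1.46 and 1.52, with a median over all genes of 6.09). For Mixl1 they were Wnt2, Scara3 and Nos1 (1.87, 1.89 and 1.97, median 4.17), and for Gsc Hoxd8, Tent5b and Art5 (3.16, 3.26 and 3.29, median 11.4). Mesp1 was nearest to Vipr1, Nrxn2 and Hpcal4 (1.99, 2.08 and 2.28, median 11.1) and Evx1 to Reep4, Dlx6 and Sox1 (2.2, 2.77 and 2.85, median 13.2). Tbx6 was nearest to Usp21, Ufc1 and Atp5j2 (2.09, 2.17 and 2.19, median 7.39), none of which had H3K27me3 coverage in any library. The 36 values share list length within a library, so likeness in part follows the lists.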

How the data were processed

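CUT&Tag libraries of H3K4me1, H3K27ac, H3K27me3 and H3K9me3 from sorted nEnd populations were used (36 lists, 3 per mark and population). Per the labels and the study's methods, the authors aligned reads to mm10 (GRCm38) with Bowtie2, made coverage with bedtools and called peaks with SEACR in stringent mode against IgG, separately for each library. The submitters' processing notes also name bcl2fastq 2.19.1, SAMtools 1.12, deepTools and bedtools 2.26.0. The deposited lists hold each peak's total and maximum signal, a sum of fragment coverage that is not comparable between libraries, so signal was used as a rank within a list.

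The percentage of each gene window (GENCODE vM21 gene body plus 20 kb either side) under peaks was computed with Python 3.11.15, NumPy 2.4.6 and pandas 2.3.3. Populations were compared by an exact permutation of the between-group sum of squares over 1680 assignments (280 distinct), adjusted over all genes with a peak in any of the 9 libraries, a procedure checked on simulated data. Depth per sample is unknown. The members, the lists and the motifs were chosen with earlier results of these data known. By rule, named genes were all members, the 3 most alike genes outside each member's window, neighbours inside a window, and list genes called by the test. The tests covered 4 marks; windows, list lengths, filters, replicate blocks and left-out replicates were varied. Replicate numbers did not pair all 3 populations throughout for any mark (1 to 4 of 9 same-number correlations over 0.1 per mark). For H3K27me3 the 3 pairs of Oct4+ and Pdgfra+ libraries were all over 0.1, as were the 3 pairs of replicate 1 libraries for H3K4me1.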

Additional observations from a re-analysis of the deposited data

How the results depend on the processing

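No member passed the adjusted threshold for any mark under any of the 11 alternatives, with a replicate block included (0 members called for each of the 4 marks, where the smallest p possible is 0.0278). These counts say little about stability, since adjustment over all genes left the threshold far off. In the main test the smallest adjusted p of any gene was 0.639 for H3K4me1, 0.443 for H3K27ac, 0.559 for H3K27me3 and 0.313 for H3K9me3. Leaving out a replicate puts a call wholly out of reach, since p cannot go below 0.0667 there. The replicate numbers did not pair all 3 populations throughout for any mark (same-number correlations from -0.652 to 0.696). Oct4+ and Pdgfra+ libraries of H3K27me3 with the same number deviated together (0.692, 0.389 and 0.665). For H3K4me1 the replicate 1 libraries of all 3 populations did so (0.633, 0.479 and 0.696), as did Oct4+ and DP replicate 2 (0.571). Of 96 recomputed counts of members with a peak, 77 stayed within 1 SD of the main count, an SD that is wide where 1 library decides the count. With lists cut to an equal number of peaks, members with an H3K27me3 peak per library averaged 3.33 in Oct4+, 4.0 in DP and 3.0 in Pdgfra+ cells, H3K4me1 peaks fell to 0 in Oct4+ and DP cells, H3K27ac gave 0.333 in Oct4+ (from 2.0) and 0.667 in Pdgfra+ cells, below and level with the 0.667 of DP cells, and H3K9me3 gave 0 in Oct4+ and DP cells. With the upper 50% of each list, H3K27me3 gave 3.33 in Oct4+ and 4.33 in DP, H3K27ac 0.667 in Pdgfra+ and H3K9me3 0.333 in Oct4+ cells. With 5 kb flanks, H3K4me1 gave 1.0 and H3K27me3 4.67 in DP, H3K27ac 0.333 in Pdgfra+ and H3K9me3 0 in all 3 populations. Counting a peak where its maximum lay, H3K27me3 gave 4.67 in DP cells. At equal list length (1074 peaks for H3K4me1, 5322 for H3K9me3) no member kept an H3K4me1 peak and T kept no H3K9me3 peak, so those differences rest on lower-ranked peaks of the lists. For H3K27me3 (1143 peaks) Mesp1 and Evx1 kept a peak in all 9 libraries and Mixl1 in none. List length sets these limits, since depth is unknown. Genes with an H3K27me3 peak in any library also fell, from 9829 in the main test to 4418 at equal list length. The share of all windows per library is not given for these variants, so their member counts cannot be read against it.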
